A study of Mus musculus with 6 samples.

Results

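Genes of insulin and insulin-like growth factor (IGF) signalling were followed by symbol in liver sinusoidal endothelial cells (LSECs) that lack or carry thioredoxin-interacting protein (*Txnip*). The 10 members were the ligand gene *Igf1*, the receptor genes *Insr*, *Igf1r* and *Igf2r*, the receptor substrates *Irs1* and *Irs2*, and the IGF-binding protein (IGFBP) genes *Igfbp3*, *Igfbp4*, *Igfbp5* and *Igfbp7*. All 10 were found among the 23282 rows of the deposited counts, and 8 of them passed the filter on low counts. The study compared 3 LSEC libraries of *Txnip-/-* mice, a whole-body knockout on a C57BL/6J background, with 3 of WT C57BL/6J mice, to learn how loss of *Txnip* alters these cells. LSECs were taken from collagenase-perfused liver by density gradient and anti-CD146 beads and were grown in an endothelial medium, a type whose usual supplements include an IGF1 analogue. The methods do not say whether the sequenced cells had been cultured, and the age and sex they give for mice of the feeding experiments are not tied to the mice these cells came from. The labels name no treatment for either group. The study's stated n for this RNA equals the number of libraries per genotype, but neither it nor the labels say whether each library is a separate mouse or a pool, so p-values measure the spread between these libraries, which may be technical. Counts are 3′ tags, about 1 per transcript whatever its length. Levels are CPM, a library's counts scaled to a common total with edgeR's TMM factors, as mean ± SD with n = 3 per genotype.

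Insulin and the IGFs bind related tyrosine kinase receptors, which recruit the substrates IRS1 and IRS2 and through them PI3K, Akt and mTOR. Akt keeps FoxO transcription factors out of the nucleus, so that FoxO target genes fall when the pathway is active. IGFBPs hold IGFs in the extracellular space and limit or prolong their action. Endothelial cells take up insulin and IGF1 from blood through the same receptors, and *Txnip* itself is a gene that insulin and glucose are known to regulate in many cell types.

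The knocked-out gene fitted the labels of every library. *Txnip* was counted 269, 216 and 191 times in the knockout (replicates 1, 2 and 3, the order kept throughout) and 1901, 2019 and 1994 times in WT, a log2 fold change of -3.02 (SE 0.14, adjusted p = 6.94e-10). WT replicate 3 stood apart from WT replicates 1 and 2. The chi-square per degree of freedom was 37.0 and 40.2 between it and the other WT libraries, 3.93 between WT replicates 1 and 2, and 8.32 to 9.57 between *Txnip-/-* libraries. The ribosomal precursor row *Rn45s* took 17.8% of its counts, where WT replicate 2 had 9.68%, WT replicate 1 had 10% and the *Txnip-/-* libraries had 16.8% to 18.6%. Calls of the 10 genes were therefore also made without this library.

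None of the 8 tested genes passed an adjusted p of 0.05 (edgeR's quasi-likelihood test, Benjamini-Hochberg adjustment over 11583 genes), where 1.55% of all tested genes did. DESeq2 and limma-trend called 0 of the 10 as well. At an unadjusted p under 0.05 there were 4, *Igf1*, *Igf1r*, *Igfbp4* and *Igfbp7*, each with a lower mean in *Txnip-/-* LSECs, beside 11.5% of all tested genes in either direction and 6.05% with a lower mean. The genotypes did not overlap for *Igf1* and *Igf1r*, both lower in *Txnip-/-* LSECs, a pattern held by 8.94% of all tested genes and, with either direction counted, by 17.4%. The median log2 fold change of the 8 was -0.210, beside 0.000 over all tested genes. Without WT replicate 3, 3 genes were called, *Igf1*, *Igf1r* and *Igfbp7*, all lower in *Txnip-/-* LSECs, where 1.93% of the genes tested in that fit were called lower.

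**Figure D1:**
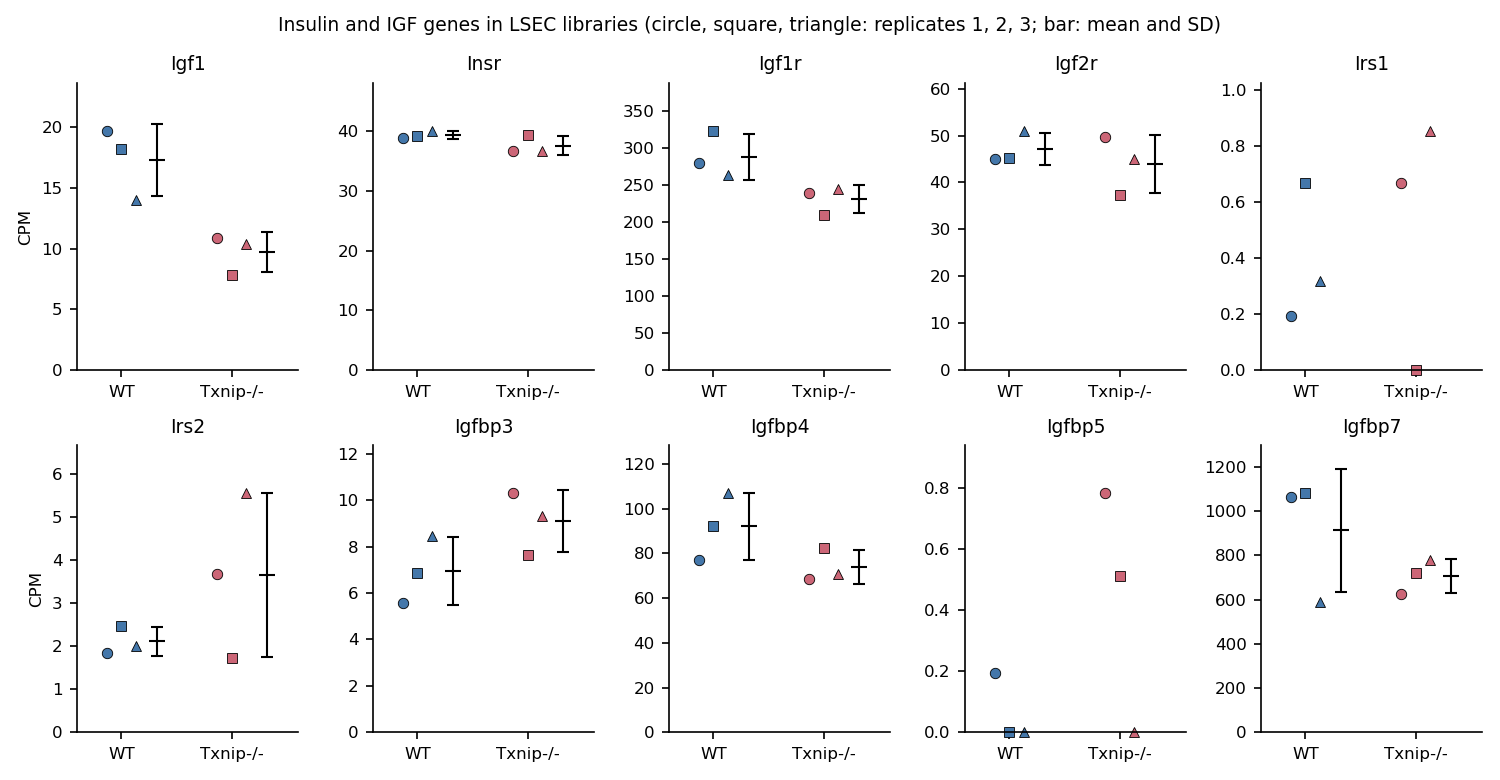
Level of each of the 10 genes in CPM (linear axes from 0, one panel per gene) in the 3 WT and 3 *Txnip-/-* libraries, with the mean and SD beside the points except for *Irs1* and *Igfbp5*, which were below the filter. The genotypes are apart for *Igf1* and *Igf1r*, and WT replicate 3 (triangle) lies just below the *Txnip-/-* libraries for *Igfbp7*.

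**Figure D2:**
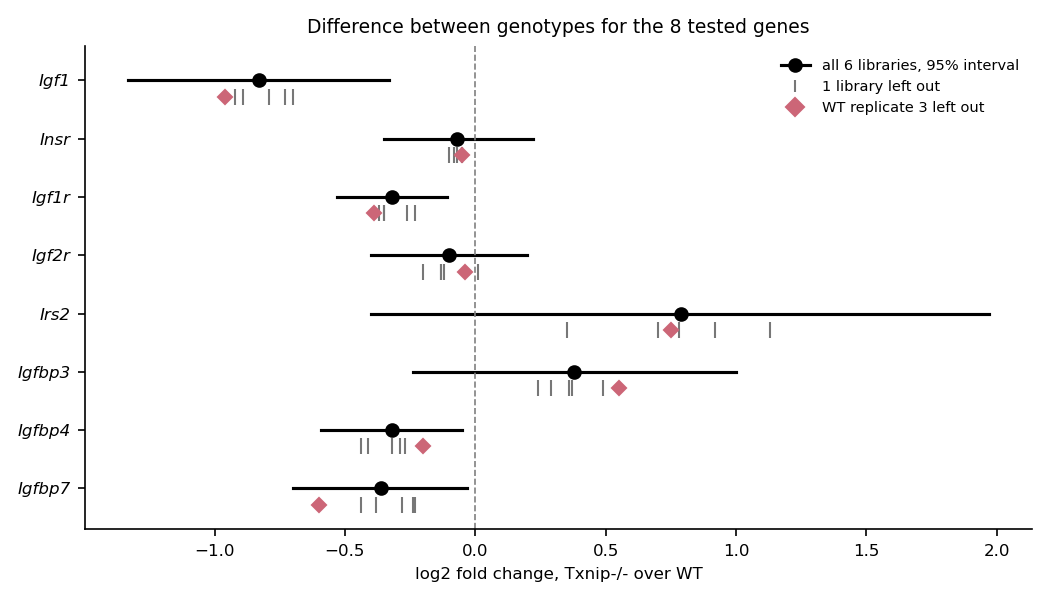
Log2 fold change of *Txnip-/-* over WT for the 8 tested genes, with the 95% interval from edgeR (black) and the value with each library left out (grey ticks, red diamond for WT replicate 3). The intervals of *Igf1*, *Igf1r*, *Igfbp4* and *Igfbp7* end below 0 before adjustment for the number of genes, and those of the other 4 include 0.

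*Igf1* (chromosome 10 of GRCm38, 87858265 to 87937042, plus strand) encodes the ligand of the IGF1 receptor, which hepatocytes release into blood and macrophages also make. It was counted 98, 77 and 97 times in *Txnip-/-* LSECs and 202, 191 and 132 times in WT. In CPM these were 10.9, 7.85 and 10.4 against 19.7, 18.2 and 14.0 (WT), with WT replicate 3 the lowest of its group and still above every *Txnip-/-* library. The means were 9.72 ± 1.65 CPM (*Txnip-/-*) and 17.3 ± 2.96 CPM (WT). The log2 fold change was -0.83 (SE 0.24, 95% interval -1.33 to -0.33) and did not pass after adjustment (adjusted p = 0.107). Without WT replicate 3 it was -0.96 (adjusted p = 0.0359), and with any other library left out it was between -0.92 and -0.70 and not called.

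Markers of Kupffer cells, the resident macrophages of the liver, were also lower in *Txnip-/-* LSECs. Of 12 such markers 11 passed the filter, and 10 of these fell in *Txnip-/-* LSECs, the other being *Clec4f* (log2 fold change -1.14, adjusted p = 0.0917). The most abundant of them, the scavenger receptor gene *Marco*, fell from 175 ± 3.86 to 83.2 ± 7.12 CPM (log2 fold change -1.07, adjusted p = 5.23e-06). Summed over the 12 markers the *Txnip-/-* libraries reached 310, 301 and 333 CPM, and the WT libraries 757, 725 and 744 CPM. Within WT this sum varied little, while *Igf1* was lower in replicate 3 than in replicates 1 and 2. No marker was at 0 in all libraries, and *Timd4* was the lowest, with at most 12 counts. Set against this sum within each library, *Igf1* came to 3.53%, 2.61% and 3.11% in *Txnip-/-* and 2.60%, 2.51% and 1.88% in WT. *Igf1* was thus lower in CPM and not lower per unit of the Kupffer cell sum, and in bulk RNA fewer cells of a type and less RNA per cell cannot be told apart. The study's bead step kept LSECs as the CD146-positive cells and took Kupffer cells from the negative ones, so it was meant to remove them. The part of Kupffer cells in the *Igf1* difference was not tested. Of 8 tested hepatocyte markers 0 were called, 7 had a higher mean in *Txnip-/-* LSECs, and the list summed to 64.7 ± 2.29 against 54.2 ± 1.38 CPM. Their most abundant gene *Alb* had 20.3 ± 7.37 CPM in *Txnip-/-* and 22.4 ± 1.78 CPM in WT LSECs (adjusted p = 0.894).

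**Figure D3:**
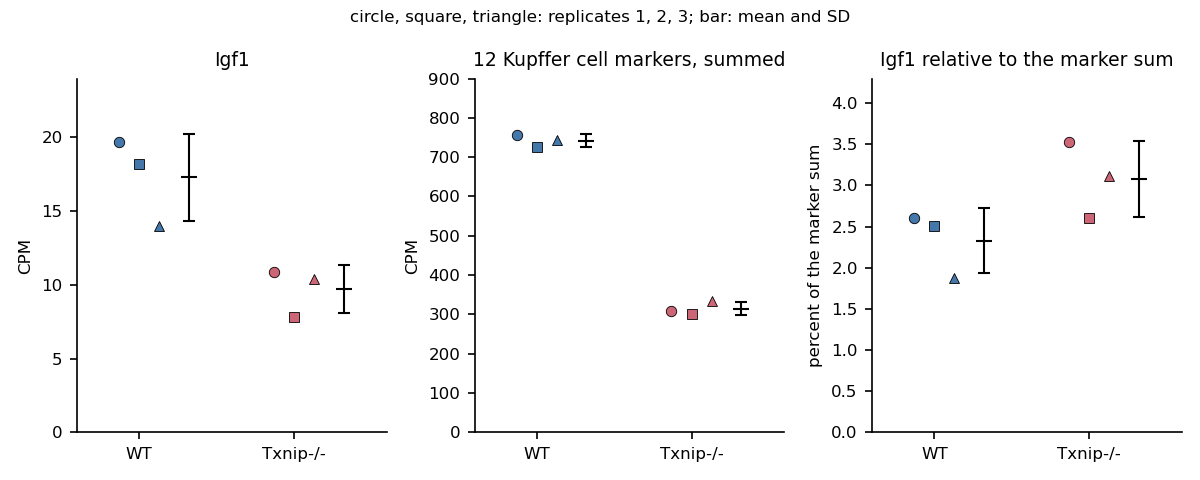
*Igf1* in CPM, the summed CPM of 12 Kupffer cell markers, and *Igf1* as a percent of that sum, in each library with mean and SD per genotype (linear axes from 0). The first and second panels are lower in all *Txnip-/-* libraries, while the third runs from 2.61% to 3.53% in *Txnip-/-* and from 1.88% to 2.60% in WT.

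The 3 tested genes most like *Igf1* over the 6 libraries, by Pearson's r of log2 CPM and outside the pathway, were *Gatsl2* (r = 0.981), *Gins3* (r = 0.981) and *Bcl2a1b* (r = 0.980). *Bcl2a1b*, a BCL2-family survival gene of blood cells, had 3.57, 2.45 and 3.10 CPM in *Txnip-/-* and 11.7, 10.3 and 7.62 CPM in WT libraries. These are the highest values among all tested genes for only 6 points, so they describe the libraries and no more. Other ligands gave little signal. *Igf2*, the other IGF ligand gene, never exceeded 8 counts, and the insulin genes *Ins1* and *Ins2* had 0 in all 6. Here 3 counts, the floor for a count of 0, equal 0.286 to 0.335 CPM.

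Among the receptors, *Igf1r* (chromosome 7, 67952827 to 68233668, plus strand), the tyrosine kinase receptor for IGF1, had the highest level. Its CPM was 239, 209 and 244 without *Txnip* and 279, 323 and 263 with it. The groups did not overlap, but *Txnip-/-* replicate 3 and WT replicate 3 were close. The log2 fold change was -0.32 (SE 0.10, 95% interval -0.53 to -0.11, adjusted p = 0.145), so the mean in *Txnip-/-* LSECs was 0.8 of that in WT. When WT replicate 3 was left out it was called, at -0.39 (adjusted p = 0.0203), as it was with no filter on low counts (adjusted p = 0.0352). With any other library left out it was between -0.37 and -0.23 and not called, the smallest being without WT replicate 2 (adjusted p = 0.63).

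*Insr* (chromosome 8, 3122061 to 3279617, minus strand), the insulin receptor, was at nearly the same level in all libraries. It had 36.6, 39.3 and 36.7 CPM in *Txnip-/-* and 38.8, 39.1 and 40.0 CPM in WT libraries. Its log2 fold change was -0.07 (adjusted p = 0.912), with an interval from -0.35 to 0.22, that is from 0.784 to 1.16 of the WT level. *Igf2r* (chromosome 17, 12682406 to 12769664, minus strand), a receptor without kinase activity that carries IGF2 and mannose 6-phosphate-tagged enzymes to lysosomes, had 49.7, 37.3 and 44.9 CPM against 45.1, 45.2 and 51.0 CPM. The groups overlapped, with *Txnip-/-* replicate 2 the lowest library, and the log2 fold change was -0.10 (interval -0.40 to 0.20, adjusted p = 0.872). *Airn*, the noncoding gene on the opposite strand of *Igf2r*, never exceeded 15 counts. Within each library *Igf1r* exceeded *Insr* by 6.53, 5.31 and 6.65 times in *Txnip-/-* and by 7.20, 8.27 and 6.57 times in WT LSECs, and these ratios overlapped between the genotypes. The order of the receptors was thus *Igf1r*, then *Igf2r* and *Insr*. In *Txnip-/-* replicate 2 *Insr* was above *Igf2r*, and in the other 5 libraries it was below.

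*Irs2* (chromosome 8, 10984681 to 11008458, minus strand), a substrate of both kinases that FoxO is known to activate, was the only tested gene of the 10 besides *Igfbp3* with a higher mean in *Txnip-/-* LSECs. Its counts of 33, 17 and 52 in *Txnip-/-* LSECs stood beside 19, 26 and 19 in WT. These were 3.68, 1.73 and 5.56 CPM against 1.85, 2.48 and 2.01 CPM, so *Txnip-/-* replicate 3 was the highest and *Txnip-/-* replicate 2 the lowest of all 6. The log2 fold change of 0.79 had an interval from -0.40 to 1.97 (adjusted p = 0.661), which covers nearly a 4-fold rise (3.93) as well as a fall, and it was between 0.35 and 1.13 with 1 library left out. *Irs1* (chromosome 1, 82233101 to 82291416, minus strand) had 6, 0 and 8 counts against 2, 7 and 3 and was below the filter, so a difference was not detectable at this depth. Its last exon also lies over *Gm9747* on the opposite strand.

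The promoter windows of 9 of the 10 genes (RefSeq, GRCm38.p6, 250 bases before to 50 after the start) were read for short motifs picked after the windows had been seen. The windows held between 52.3% (*Igf1*) and 76.0% (*Igf1r*) G and C, where the median of all 32851 windows was 52.7%. An E-box, CACGTG, stood in those of *Irs1*, *Irs2* and *Igf2r*, as in 7.15% of all windows. The insulin response core CAAAACA, searched on both strands, stood in *Irs1* and *Irs2*, as in 6.28% of all windows, and 134 of the windows (0.408%) held both. No member's window held GTAAACA, the sequence searched as a FoxO site, which 3.65% of all windows do. The response core was counted apart from it, so this does not show that the windows lack any sequence FoxO can bind. The GC box GGGCGG was found in 5 of the members' windows, against 35.7% of all. The stretches below, 60 bases each, show how closely the E-box and the response core sit in the substrate genes, where they share 2 letters in *Irs1*, and give the receptors for comparison. Capitals mark E-boxes and response cores in *Irs1* (chr1:82291510-82291569, minus strand) and *Irs2* (chr8:11008930-11008989, minus strand), E-boxes in *Igf2r* (chr17:12769708-12769767, minus strand) and GC boxes in *Igf1r* (chr7:67952197-67952256, plus strand).
Irs1: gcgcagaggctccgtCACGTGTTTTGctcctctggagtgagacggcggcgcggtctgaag
Irs2: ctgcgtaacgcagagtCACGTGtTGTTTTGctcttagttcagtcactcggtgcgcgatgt
Igf2r: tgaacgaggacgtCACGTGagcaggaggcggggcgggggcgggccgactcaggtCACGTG
Igf1r: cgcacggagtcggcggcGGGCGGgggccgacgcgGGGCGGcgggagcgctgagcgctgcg
A match describes the letters in these windows and is not a measured binding site.

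The binding protein genes spanned the widest range of levels. *Igfbp7* (chromosome 5, 77349240 to 77408041, minus strand), a secreted protein of vascular basement membranes with low affinity for IGFs, made up 88.7%, 88.5% and 90.3% of the summed CPM of *Igfbp1* to *Igfbp7* in *Txnip-/-* and 92.6%, 91.3% and 83.3% in WT libraries. *Igfbp4* (chromosome 11, 99041244 to 99054392, plus strand), an inhibitor of IGF action that the protease PAPP-A cleaves, was next. Its level was 68.6, 82.5 and 70.7 CPM in *Txnip-/-* LSECs beside 77.1, 92.4 and 107 CPM in WT, and the groups overlapped. Its log2 fold change was -0.32 (SE 0.13, interval -0.59 to -0.05, adjusted p = 0.321). Without WT replicate 3, its highest library, it was -0.20 (adjusted p = 0.511).

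*Igfbp3* (chromosome 11, 7206086 to 7213923, minus strand), the main carrier of IGFs in blood, had 10.3, 7.65 and 9.30 CPM against 5.55, 6.86 and 8.46 CPM. The higher mean of *Txnip-/-* LSECs was within the spread of the libraries (log2 fold change 0.38, interval -0.24 to 1.0, adjusted p = 0.689). *Igfbp5* (chromosome 1, 72857932 to 72874884, minus strand), an IGFBP of mesenchymal cells and extracellular matrix, had 7, 5 and 0 counts in *Txnip-/-* and 2, 0 and 0 in WT libraries and could not be compared at this depth. Some markers of stellate cells and smooth muscle rose in *Txnip-/-* LSECs. Of the 9 tested stellate cell markers all had a higher mean in *Txnip-/-* LSECs and 1 rose, *Dcn* (from 15.4 ± 1.55 to 30.6 ± 2.66 CPM, adjusted p = 0.00497), and the sum of the list was 53.6, 67.2 and 61.2 CPM against 34.3, 27.3 and 32.3 CPM. Of 6 smooth muscle and pericyte genes 3 were tested and 2 rose, *Acta2* and *Tagln* (from 24.5 ± 4.09 to 48.3 ± 6.60 CPM, adjusted p = 0.00313), while *Notch3*, below the filter, had 0.141 against 0.487 CPM and *Cnn1* had no count. The study collected stellate cells on a gradient of another density than the LSEC fraction. The part of stellate and smooth muscle cells in the values of *Igfbp3* and *Igfbp5* was not tested.

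*Igfbp7* was the most abundant of the 10, and its WT libraries were split. It was counted 5605, 7082 and 7285 times in *Txnip-/-* LSECs and 10947, 11354 and 5588 times in WT. In CPM WT replicate 3, at 591, lay below all *Txnip-/-* libraries (626, 722 and 779), while the other WT libraries had 1066 and 1082. It was also called with no filter on low counts (log2 fold change -0.37, adjusted p = 0.00109). Over all libraries the log2 fold change was -0.36 (SE 0.16, interval -0.70 to -0.03, adjusted p = 0.377). Without WT replicate 3 it was -0.60 (adjusted p = 5.81e-05), and with either other WT library left out it was -0.24 or -0.23 and not called. *Lyve1*, the hyaluronan receptor gene of LSECs, was split in the same way, with 1475, 1642 and 1976 CPM (*Txnip-/-*) beside 3482, 3780 and 1520 CPM (WT).

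The last exon of *Igfbp7* overlaps an exon of *Polr2b*, a subunit gene of RNA polymerase II on the opposite strand, by 85 bases in GENCODE M21. *Polr2b* was counted 4339, 5261 and 5399 times (*Txnip-/-*) and 8083, 8481 and 4463 times (WT), which is the order of *Igfbp7* in WT and in *Txnip-/-*. There were 0.774, 0.743 and 0.741 counts of *Polr2b* for each of *Igfbp7* in *Txnip-/-* and 0.738, 0.747 and 0.799 in WT libraries. *Polr2b* was so at 533 ± 46.5 and 689 ± 188 CPM. Its groups overlapped and it was not called (log2 fold change -0.37, adjusted p = 0.303). The other subunit genes looked at, 4 in number (*Polr2a*, *Polr2c*, *Polr2d* and *Polr2e*), lay between 9.41 and 246 CPM, with log2 fold changes from -0.11 to 0.08. The methods do not say whether reads were counted by strand, and without strand the reads of these 2 genes where they overlap cannot be told apart. *Polr2b* was looked at because of this overlap, and the other subunit genes were chosen after its values were seen.

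**Figure D4:**
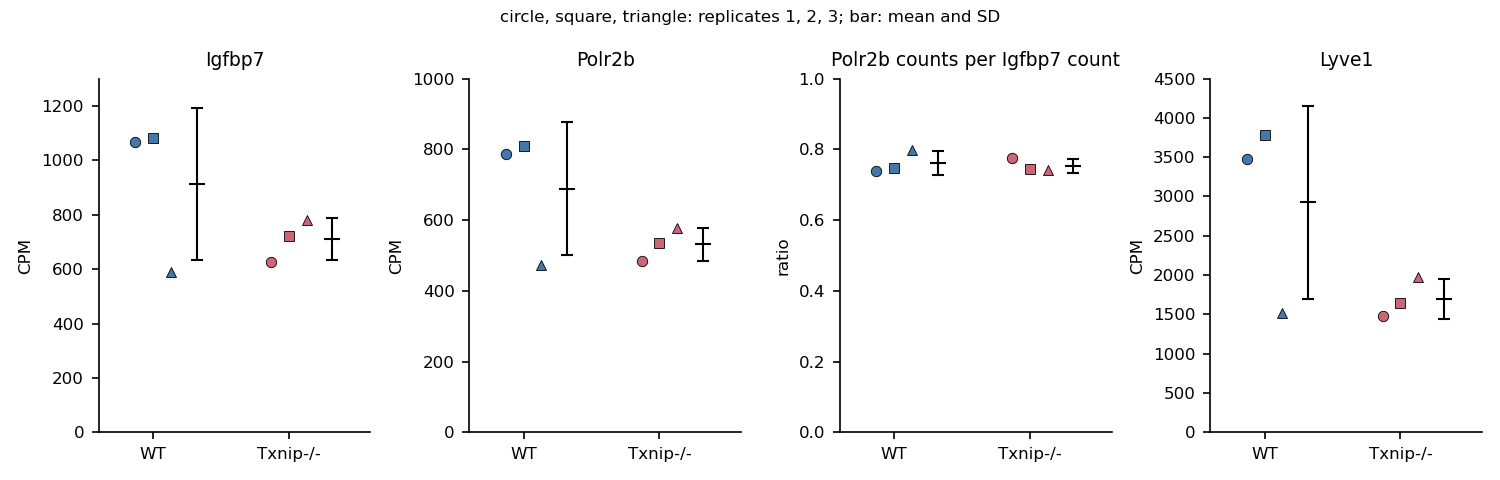
CPM of *Igfbp7*, *Polr2b* and *Lyve1*, and counts of *Polr2b* per count of *Igfbp7*, in each library with mean and SD per genotype (linear axes from 0). WT replicate 3 (triangle) lies far below WT replicates 1 and 2 for the 3 genes, and the ratio stays between 0.738 and 0.799 in all 6 libraries.

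Beyond these 10, a list of 77 other genes of the pathway had 59 above the filter. Of these 1 fell, 0 rose and 58 did not pass an adjusted p of 0.05, beside 1.55% of all tested genes called and 0.976% called lower. Unadjusted, 9 of the 59 had a p under 0.05, 8 with a lower and 1 with a higher mean, beside the 11.5% and 6.05% given above. Their median log2 fold change was -0.072. The gene that fell was *Klf15* (chromosome 6, 90462576 to 90475238, plus strand), a transcription factor of amino acid and glucose metabolism known to respond to fasting and to glucocorticoids. It was counted 15, 28 and 22 times without *Txnip* and 65, 75 and 102 times with it, a fall from 8.09 ± 2.38 CPM in WT to 2.29 ± 0.592 CPM in *Txnip-/-* LSECs. The groups did not overlap, and the log2 fold change was -1.81 (SE 0.41, adjusted p = 0.0307). With any 1 library left out, and with the replicate number as a block, it was no longer called, at a log2 fold change of -1.99 to -1.55 (adjusted p = 0.0595 to 0.125) and of -1.80 (adjusted p = 0.0701), respectively.

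Of the 14 tested FoxO genes and targets no other was called. A lower mean in *Txnip-/-* LSECs was seen for 10, *Klf15* among them, beside 50% of all tested genes. *Foxo1*, the most abundant FoxO gene here, had 65.1, 61.9 and 55.0 CPM in *Txnip-/-* and 69.3, 69.3 and 71.3 CPM in WT libraries (log2 fold change -0.21, adjusted p = 0.531). *Sesn1* and *Sesn3*, stress-response genes that FoxO activates, had log2 fold changes of opposite sign, -0.69 (adjusted p = 0.283) and 2.14 (adjusted p = 0.301), the second on at most 34 counts. *Pink1*, a kinase gene of mitochondrial quality control, had 55.4 ± 5.85 CPM against 73.9 ± 2.81 CPM without overlap (log2 fold change -0.42, adjusted p = 0.108).

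Of the 10 genes for TSC, Rheb, the mTOR complexes and their substrates, 4 had an unadjusted p under 0.05, all with a lower mean, and none was called. They were the kinase gene *Mtor* (14.0, 12.6 and 16.6 CPM against 30.1, 22.3 and 16.0 CPM, log2 fold change -0.66, adjusted p = 0.236), the genes of its inhibitors *Tsc1* and *Tsc2* (-0.47 and -0.32) and *Rictor* of the second complex (-0.29). *Mtor* was called without WT replicate 3, its lowest WT library. The translation repressor gene *Eif4ebp1*, the most abundant of the group, had 476 ± 28.6 CPM against 432 ± 1.64 CPM (log2 fold change 0.14, adjusted p = 0.541). *Tsc1*, *Tsc2*, *Rictor*, *Sesn1*, *Sesn3* and *Pink1* were singled out after their values were seen.

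None of the 13 genes of PI3K and Akt was called, and *Akt1*, the most abundant, had 367 ± 27.0 against 342 ± 18.3 CPM (log2 fold change 0.10, adjusted p = 0.736). Among 8 tested receptor adaptors the log2 fold change of *Sh2b2* was 0.42 (adjusted p = 0.518) and that of *Grb2* was -0.07 (adjusted p = 0.862), with an interval from -0.27 to 0.13. Among 12 tested inhibitors the insulin receptor phosphatase gene *Ptpn1* had 133 ± 4.19 against 142 ± 7.64 CPM (adjusted p = 0.782), and *Ptprf*, at no more than 51 counts, had a log2 fold change of 1.37 (adjusted p = 0.542). Of the other IGFBP genes and the proteases that act on them, *Adamts1* was the most abundant at 229 ± 17.5 against 215 ± 20.0 CPM (adjusted p = 0.814). *Pappa2*, which encodes a protease of IGFBP3 and IGFBP5, had 10, 5 and 6 counts in *Txnip-/-* libraries and 0 in all WT libraries but was below the filter, and was named after its values were seen.

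**Figure D5:**
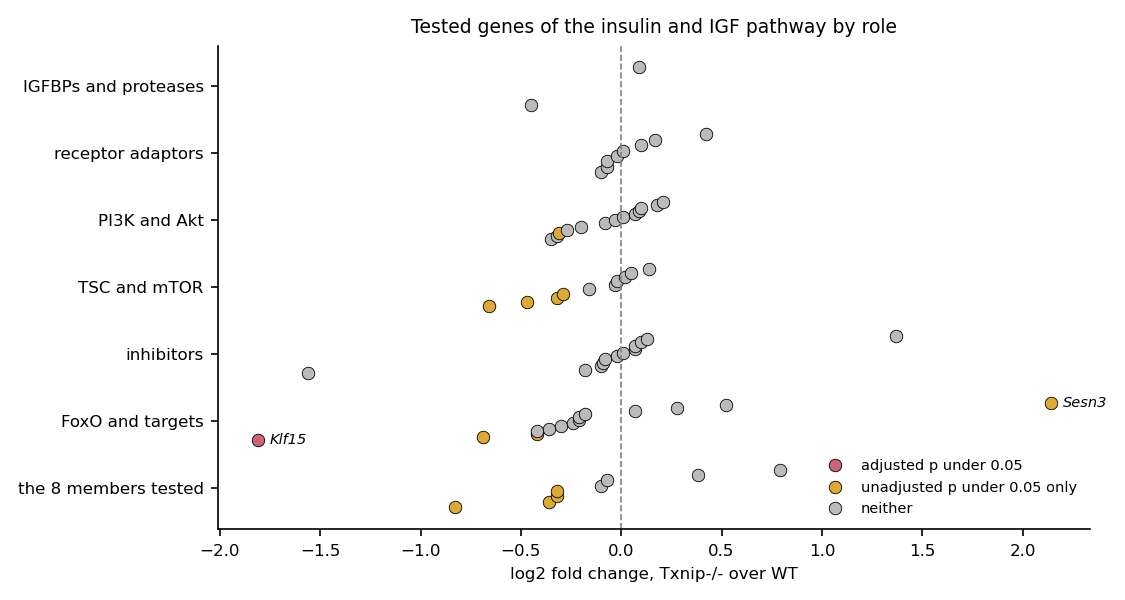
Log2 fold change of *Txnip-/-* over WT for the 59 tested pathway genes, by role, and for the 8 tested members, each point a gene. *Klf15* alone is past an adjusted p of 0.05 (red), and 4 of the 10 TSC and mTOR genes are past an unadjusted p of 0.05 with a lower mean (yellow).

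Endothelial markers were present in all libraries. The endothelial genes *Cdh5* and *Pecam1* were at 1069 ± 87.7 and 885 ± 62.8 CPM in *Txnip-/-* LSECs and at 1101 ± 103 and 934 ± 142 CPM in WT LSECs, and *Lyve1* was the most abundant of the 12 LSEC markers, none of which was at 0. *Clec4g*, a lectin gene of sinusoidal endothelium, reached only 7.64 ± 1.5 and 8.40 ± 1.03 CPM. All 12 markers had a lower mean in *Txnip-/-* LSECs, 7 with an unadjusted p under 0.05, and 2 fell, the scavenger receptor genes *Stab1* and *Stab2*, with log2 fold changes of -0.46 and -0.36. The median of the 12 was -0.322, beside -0.32 for *Igf1r* and *Igfbp4* and -0.36 for *Igfbp7*. The list summed to 4659, 4974 and 5099 CPM in *Txnip-/-* libraries (4911 ± 227) and to 6985, 7161 and 5377 CPM in WT libraries (6508 ± 983). *Lyve1* alone had 1698 ± 255 CPM in *Txnip-/-* and 2927 ± 1228 CPM in WT LSECs, with WT replicate 3 among the *Txnip-/-* values. The part of the LSEC marker list in the values of *Igf1r*, *Igfbp4* and *Igfbp7* was not tested. Among markers of large vessels and other capillaries *Sox17* was the most abundant (306 ± 18.3 against 335 ± 14.6 CPM) and 0 of 6 tested were called. Of these 6, 4 had a lower and 2 a higher mean in *Txnip-/-* LSECs. The 2 were *Ly6a* (32.4 ± 4.96 against 20.8 ± 1.15 CPM, adjusted p = 0.0787) and *Efnb2* (50.9 ± 7.02 against 40.9 ± 2.84 CPM, adjusted p = 0.389). Both had an unadjusted p under 0.05 and no overlap, and were named after their values were seen. The 4 with a lower mean were *Sox17*, *Cd34* (6.19 ± 0.936 against 9.79 ± 4.56 CPM, adjusted p = 0.481), *Plvap* (10.3 ± 2.28 against 13.0 ± 1.97 CPM, adjusted p = 0.673) and *Selp* (3.46 ± 0.5 against 3.54 ± 2.39 CPM, adjusted p = 0.988). None of these 4 had an unadjusted p under 0.05. Of 7 lymphocyte genes 6 had no count in any library (*Cd3d*, *Cd3e*, *Cd79b*, *Ms4a1*, *Nkg7* and *Klrb1c*), and *Cd79a* had at most 4. Neutrophil genes summed to at most 2.24 CPM, with *Mpo* and *Retnlg* at 0 and *Cxcr2* the most abundant, and cholangiocyte genes to at most 7.37 CPM, led by *Sox9*.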

How the data were processed

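RNA of LSECs was sequenced with QuantSeq 3′ libraries, 3 per genotype. Reads were aligned to mm10 with Bowtie2 and tallied with bedtools by the authors (tools from the submitters' processing notes), who deposited raw counts per gene from unique and multiple alignments; versions, annotation and strand are not given in the sources used here. Library totals were 9147764 to 10193952 counts, and 44 of 23282 rows, which repeat the symbol of an earlier row, were treated as separate genes. The floor of 3 counts covers counting error only.

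Counts were filtered with filterByExpr (11583 genes), scaled by TMM and tested with edgeR 4.0.16 (glmQLFit, glmQLFTest) in R 4.3.3, with genotype as the single term and adjustment over all tested genes. SEs and 95% intervals came from the F statistic. DESeq2 1.42.0 and limma-trend (limma 3.58.1, prior count 2) were alternatives, as were other scalings, filters, thresholds, a replicate block, a term for WT replicates 1 and 2, and each library left out. The fit was tested on simulated data. Same-numbered libraries deviated from their group means with correlations of -0.0296, 0.0167 and -0.0469. The reported fit did not treat them as pairs, and neither the labels nor the methods say whether the numbers mark pairs. Members and lists were chosen with earlier results of these data known. Named were all members, called pathway genes, the lowest p and highest level per role, the leading and absent genes per marker list, and the 3 genes most like the member with the smallest p. *Trac* and *Ly6g* were not analysed here. For 1 role, the gene with the lowest p is not reported here. Positions are GENCODE M21 (GRCm38) and promoters RefSeq (GRCm38.p6).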

Additional observations from a re-analysis of the deposited data

How the results depend on the processing

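The genes called numbered 346 with no filter on low counts, 108 with the replicate block and 1336 at an unadjusted p, against 179 in the reported fit, and 89 to 367 with 1 library left out. Members called numbered 2 with no filter, 4 at an unadjusted p, and 0 to 3 with 1 library left out, the 3 being without WT replicate 3. They stayed at 0 under the replicate block, which changed no other call of a member. Other pathway genes called numbered 0 under the replicate block, 9 at an unadjusted p and 0 to 1 with 1 library left out. The gene called without WT replicate 3 was *Mtor* in place of *Klf15*. Members without overlap numbered 4 with no normalization factors, which shifts the median of all genes to -0.082, and 2 to 6 with 1 library left out (6 without *Txnip-/-* replicate 2). The share of all tested genes without overlap is given only for the reported fit, and smaller groups overlap less often by construction. These counts therefore say nothing about the members as such. The log2 fold change of *Igf2r* turned to 0.01 without *Txnip-/-* replicate 2, from a range of -0.20 to 0.01. The cause of these changes was not tested. A term for WT replicates 1 and 2 leaves WT replicate 3 as the only WT library in the comparison. The log2 fold change was then 0.26 for *Igfbp7*, whose lowest library this is, -0.19 for *Igf1r*, -0.52 for *Igf1* and -0.54 for *Igfbp4*, and these values say nothing beyond that library. *Irs1* and *Igfbp5* lie near the floor of 3 counts, where depth limits any comparison.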
